A study of Caenorhabditis elegans with 44 samples.

Results

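miR-5592-3p and miR-5592-5p are the strands cut from the 2 annotated miR-5592 hairpins of *Caenorhabditis elegans*, and their counts were followed by hour through larval growth into the young adult. These 2 strands, of 437 mature microRNA strands in the count table, were chosen by their measured levels, which stayed near the counting limit through early larval life and then climbed within a few hours. The low level up to 22 h and the rise that followed are therefore given below as a description with no test. The animals were whole N2 worms, the wild-type laboratory strain, with no treatment. Arrested first-stage larvae were plated at 25 °C, and RNA was taken at every hour from 5 h to 48 h. Each hour gave 1 small RNA library, 44 in all, with no replicates. Every p-value below thus measures the scatter of hourly libraries around a fitted curve within a single time course of pooled animals.

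A microRNA is transcribed as a longer RNA that folds back into a hairpin, and the enzymes Drosha and Dicer cut from it a short duplex of a 5p and a 3p strand. One strand, called the guide, is usually kept by an Argonaute protein and pairs through its seed with target messenger RNAs, while the other, called the passenger, is usually discarded. In *C. elegans* several microRNAs, lin-4 and let-7 among them, appear at set times of larval life and time the fates of developing cells. In whole worms, fewer cells that make a microRNA and less of it per cell cannot be told apart.

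In the WBcel235 assembly, 2 hairpin genes of this name lie on chromosome X, on opposite strands of the same stretch of DNA. The gene cel-mir-5592-1 is annotated on the minus strand at X:13759245-13759308, with its 5p strand at X:13759286-13759308 and its 3p strand at X:13759245-13759267. The gene cel-mir-5592-2 is annotated on the plus strand at X:13759247-13759310, with its 5p strand at X:13759247-13759269 and its 3p strand at X:13759288-13759310. Each hairpin spans 64 bases, and the pair shares 62 of them with an offset of 2 bases, so that the mature strands of one hairpin lie opposite those of the other. Each of the 4 annotated mature strands is 23 bases long. The count table holds a single row per strand name, so counts from the minus-strand hairpin and counts from the plus-strand hairpin could not be told apart.

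Both hairpins lie inside an intron of aakb-1, which encodes a beta subunit of AMP-activated protein kinase, a sensor of cellular energy. The intron, at X:13758937-13759385, is the last of the 4 introns of the transcript F55F3.1.2 and is 449 bases long. It lies downstream of the coding sequence, within the 3′ untranslated region of that transcript. aakb-1 is on the plus strand, so cel-mir-5592-2 lies in the sense orientation and cel-mir-5592-1 in the antisense orientation. The nearest other annotated microRNA gene, cel-mir-793, was 98652 bases away.

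Library totals had a median of 10678292 counts and a maximum of 14672735. Worms of 38 h gave the shallowest library, 1669246 counts, against 7059421 in the next smallest. Counts were divided by the library total and multiplied by the mean total of 10571268, and such values are called normalised counts. At this scale 1 count was worth 0.720 to 1.5 normalised counts in the other libraries and 6.33 at 38 h. Of the 437 strands, 272 had a mean count of at least 10 and were tested. Both miR-5592 strands passed that filter, but only through the hours after their switch-on.

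miR-5592-3p was close to the counting limit in all 17 libraries of 5 to 21 h. It had between 5 and 15 counts in each, and 161 counts in all, with a lowest, median and highest level of 5.29, 10.2 and 14.7 normalised counts. miR-5592-5p was scarcer still, with 0 to 3 counts per library and 26 in all. Its level over the same hours had a median of 1.97 and a highest value of 3.21 normalised counts, and it had no count at 9 h and 12 h. If a count of 0 is taken to allow 3 counts, the level was up to 2.96 normalised counts at 9 h and 2.79 at 12 h. The exact Poisson upper limits were 3.64 and 3.43. Over 8 to 21 h the pooled level was 10.2 normalised counts for miR-5592-3p (95% Poisson interval 8.59 to 12.1) and 1.47 for miR-5592-5p (0.898 to 2.27). Intervals of levels and ratios given here cover counting error only, since amplified reads are not independent molecules.

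miR-5592-3p then rose hour by hour from its early level. The 8 hourly libraries of 21 to 28 h held, in order, 13.2, 29.7, 157, 891, 2737, 5752, 10967 and 15677 normalised counts of it. The 33 counts at 22 h gave an interval of 20.4 to 41.7 normalised counts, above the level of every library of 5 to 21 h. The intervals of several of those libraries overlapped it, that of 20 h reaching 26.3. For miR-5592-5p the same 8 libraries held 2.93, 3.60, 53.3, 225, 660, 1591, 3106 and 4657 normalised counts. Its 4 counts at 22 h gave an interval of 0.980 to 9.21, which overlapped the libraries before it. By level both strands were thus above their range of 5 to 21 h at 22 h, the 5p strand with 3.60 against at most 3.21 normalised counts. By interval, neither was clear of its earlier libraries until 23 h. The scarcer 5p strand had too few counts at 22 h to rank the starts of the strands.

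**Figure D1:**
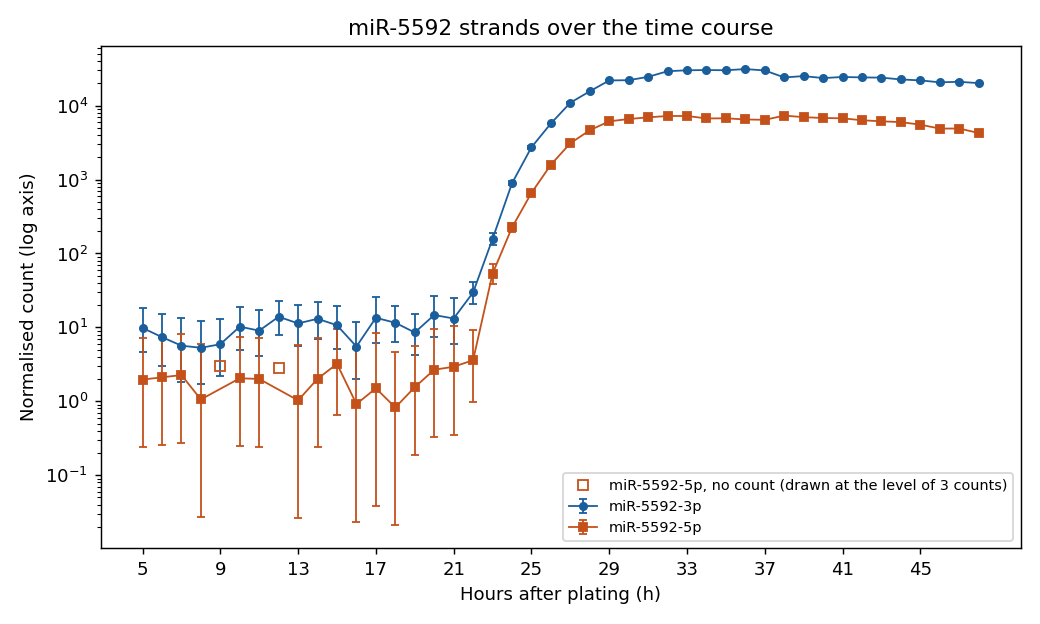
Normalised counts of miR-5592-3p (circles) and miR-5592-5p (squares) in the 44 libraries, by hours after plating, on a log axis. Bars are 95% Poisson intervals, and open squares mark 9 h and 12 h, where miR-5592-5p had no count and is drawn at the level of 3 counts. Both strands were low to 21 h, climbed steeply over 23 to 28 h and changed little after 32 h on this scale.

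The switch-on hour was taken as the first hour from which every later library had at least 10 times the pooled level of 8 to 21 h. It was 23 h for both strands. The steepest rise over 4 consecutive libraries, each with at least 10 counts of the strand, was 2.21 ± 0.14 log2 units per hour (SE of the slope) for miR-5592-3p, over 22 to 25 h, which is a doubling every 0.453 h (95% interval 0.354 to 0.627 h). For miR-5592-5p it was 1.63 ± 0.13 log2 units per hour over 23 to 26 h, a doubling every 0.615 h (0.459 to 0.934 h). That minimum left out the hours from 22 h for the 5p strand, which had 4 counts then, so its first jump is not in this slope and the slopes of the strands cannot be ranked. The doubling intervals come from the scatter of 4 libraries around a line, in a window picked as the steepest. The level crossed 50% of its mean of 36 to 48 h at 27.2 h for miR-5592-3p and at 27.0 h for miR-5592-5p.

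The rise slowed after 28 h. miR-5592-3p stood at 21983, 22154 and 24594 normalised counts in the libraries of 29, 30 and 31 h, and then lay between 29276 and 31331 in the 6 libraries of 32 to 37 h. Its highest level, 31331 at 36 h, was 0.296% of all microRNA counts in that library and ranked 40th of the 437 strands, whereas at 21 h it had ranked 248th. miR-5592-5p was already at 6153 normalised counts at 29 h and lay between 6442 and 7268 in the libraries of 32 to 37 h. Its highest level, 7346, was that of the shallow 38 h library, where its 1160 counts gave an interval of 6930 to 7781 that covers its level of 7268 at 33 h. Both strands therefore stayed within a narrow band for several hours.

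Across the table, 36 of 272 tested strands had a switch-on hour by the same rule. Of these, 1 switched on at 11 to 21 h, 12 at 22 to 26 h, 5 at 27 to 35 h and 18 at 36 h or later. The mean of 36 to 48 h was 2379 times the pooled level of 8 to 21 h for miR-5592-3p and 4068 times for miR-5592-5p. The multiple of miR-5592-5p rests on 20 early counts. Of the tested strands, 6 had a multiple of at least 100, and the 3 highest were both miR-5592 strands and miR-85-3p, with 1456.

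Since the strands were chosen for a low level before the switch-on, their course there is a description. The linear edgeR fit over the 14 libraries of 8 to 21 h gave a change of 0.69 ± 0.39 log2 units (SE) for miR-5592-3p and 1.13 ± 0.88 for miR-5592-5p. Over the same hours 23.5% of tested strands rose and 22.4% fell by edgeR, and the median change of all tested strands was -0.04. With 139 counts of 3p and 20 of 5p in these libraries, whether either strand was already climbing could not be resolved at this depth.

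In the young adult both strands fell when libraries were scaled to their totals. The level of miR-5592-3p over 36 to 48 h ranged between 20210 at 48 h and 31331 at 36 h with a median of 23988 normalised counts. The linear fit over these 13 libraries fell by 0.53 ± 0.09 log2 units (SE; edgeR adjusted p = 8.2e-05). This window opens at the highest level of miR-5592-3p, so part of that fall is built into the choice of window. miR-5592-5p ranged between 4268 at 48 h and 7346 at 38 h with a median of 6354, and its fit fell by 0.63 ± 0.12 log2 units (edgeR adjusted p = 0.000264). Over the same window 50% of tested strands fell and 19.9% rose, and the median change of all 272 was -0.51. Relative to that median, miR-5592-3p changed by -0.03 and miR-5592-5p by -0.12 log2 units, and 47.8% and 43.0% of tested strands had a lower change.

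The miR-35 family, guides made by the germ line and embryos, took up 13.2% of all counts at 48 h, against 0.490% at 36 h. With library totals that left out these 8 guides the changes were -0.31 for miR-5592-3p (edgeR adjusted p = 0.00777) and -0.40 for miR-5592-5p (adjusted p = 0.00581), against a median of -0.30. With TMM factors, which set the bulk of strands level between libraries, they were -0.10 (edgeR adjusted p = 0.331) and -0.20 (adjusted p = 0.203), against a median of -0.08, so neither was called. With these factors 78 strands rose and 68 fell, against 54 and 136 with totals. The size of the fall, and whether it was called, thus followed the scaling.

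**Figure D2:**
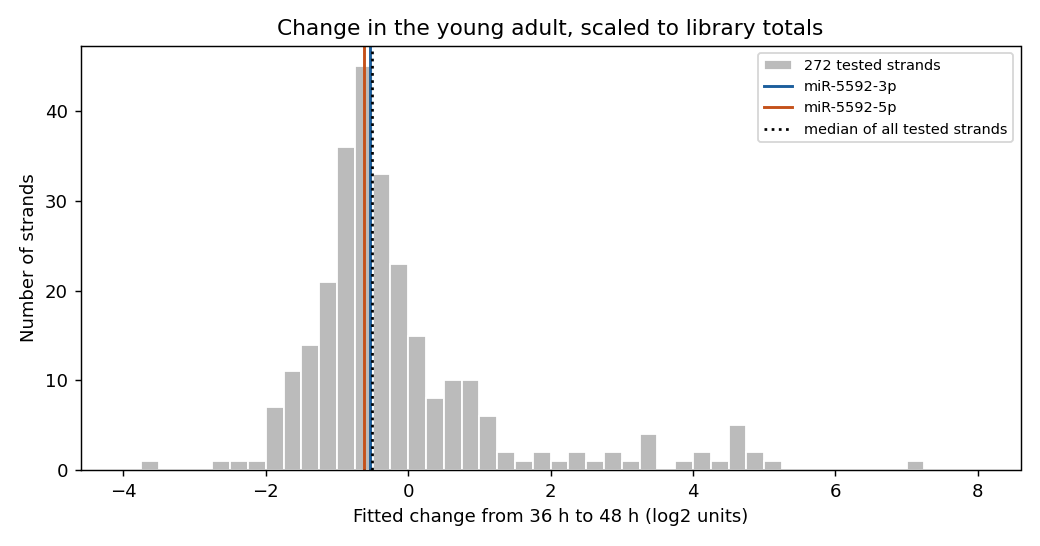
Number of tested strands by their fitted change over 36 to 48 h in log2 units, with libraries scaled to their totals. The solid lines of miR-5592-3p, at -0.53, and miR-5592-5p, at -0.63, stand close to the dotted median of the 272 strands, at -0.51.

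No 7 h rhythm was called for the strands after their switch-on. A fixed 7 h period was the one used in the rhythm model of the study. The study fitted that model only within its window of larval oscillation, most of which lies before the hours used here. Over the 21 libraries of 28 to 48 h the fitted amplitude was 0.02 log2 units for miR-5592-3p and 0.08 for miR-5592-5p (edgeR adjusted p = 0.9995 for both). The joint test called 0% of tested strands in this window with edgeR, 8 strands had an unadjusted p under 0.05, and DESeq2 and limma each called 0 as well. With the linear trend miR-235-5p, classed as oscillating in the study, had an amplitude of 1.07 log2 units and was not called (edgeR adjusted p = 0.9995). With a quadratic in place of a linear trend, edgeR called 2 strands, neither of them from miR-5592. The lack of a call in this window thus does not show that a rhythm was absent.

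The 3p strand was the more abundant in every library with a count of either, and the ratio of the strands is free of the scaling of libraries. Counts of both hairpins are pooled in this ratio, so a change in their mix and a change within 1 hairpin could not be told apart. Over 24 to 48 h there were 565502 counts of 3p and 142360 of 5p, a ratio of 3.97 (95% interval 3.949 to 3.996), or a 5p share of 20.1% (Clopper-Pearson interval 20.0% to 20.2%). At 23 h, the switch-on hour, it was 2.96 (2.09 to 4.24), against a pooled ratio of 6.19 over 5 to 21 h (4.07 to 9.77, from only 26 counts of 5p). These intervals overlapped.

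The ratio climbed within 28 to 37 h and again within 38 to 48 h, with a drop in between. The first of these windows takes in the end of the rise of both strands. In the 10 libraries of 28 to 37 h it was, in order, 3.37, 3.57, 3.36, 3.53, 4.03, 4.15, 4.52, 4.47, 4.804 and 4.66. In the 11 libraries of 38 to 48 h it was 3.29, 3.60, 3.47, 3.63, 3.80, 3.90, 3.78, 3.97, 4.23, 4.29 and 4.74. The last libraries on either side of the drop thus reached nearly the same ratio, and the libraries just after the drop lay close to the values of 28 to 31 h.

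**Figure D3:**
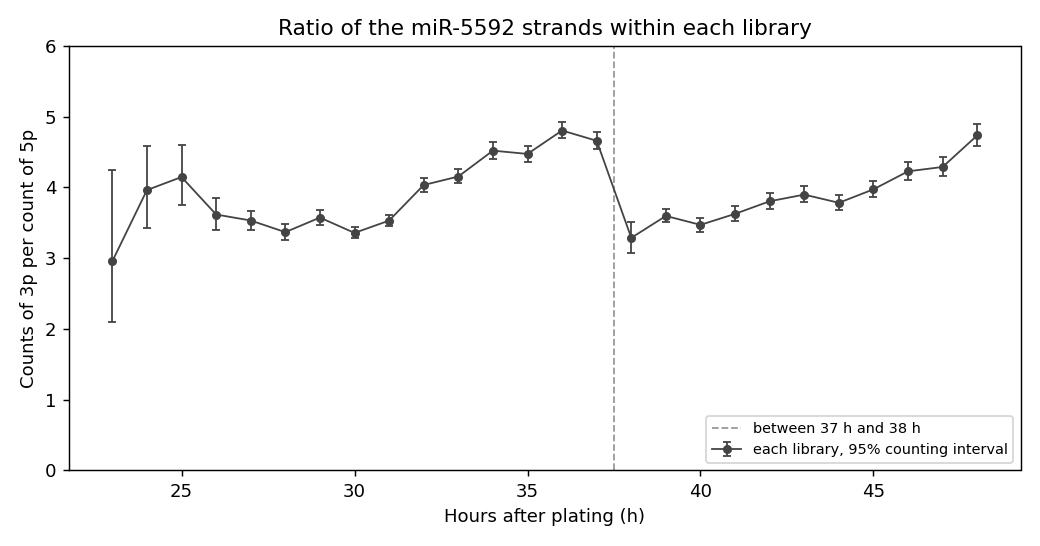
Counts of miR-5592-3p per count of miR-5592-5p in each library of 23 to 48 h, with 95% counting intervals. The dashed line lies between 37 h and 38 h, where the ratio was 3.29 after and 4.66 before, and the ratio climbed on either side of it.

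Over the whole of 24 to 48 h the ratio did not pass the test with a single line in time, and did with a step between 37 h and 38 h. The interaction of strand and time, with the library as a factor, gave a change of 0.16 ± 0.13 log2 units (SE, 25 libraries; edgeR adjusted p = 0.333 over 102 hairpins), where the ratio rose in 20.6% of hairpins and fell in 24.5%. With the step it rose by 0.80 ± 0.20 log2 units (edgeR adjusted p = 0.00397), in a fit that called 15 of 102 hairpins as rising and 13 as falling. The step and the windows on either side of it were chosen after the ratio was seen. Over 28 to 37 h it rose by 0.57 ± 0.13 log2 units (10 libraries; edgeR adjusted p = 0.0102), where 18.6% of hairpins rose and 13.7% fell. Over 38 to 48 h it rose by 0.43 ± 0.11 log2 units (11 libraries; edgeR adjusted p = 0.00599), where 24.5% rose and 24.5% fell. By size these rises ranked 32nd and 34th of 102 hairpins, so changes of this size were common in the table.

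The drop between 37 h and 38 h was -0.50 log2 units in the ratio. It came from both strands, since miR-5592-3p had 24141 normalised counts at 38 h, against 30012 at 37 h, and miR-5592-5p had 7346 at 38 h, against 6442 at 37 h. The shallow 38 h library did not hold it alone, because at 39 h miR-5592-3p was still at 25180 and miR-5592-5p at 7002 normalised counts. Across the 205 strands with a mean of at least 100 counts, the median absolute step of log2 normalised counts, with 8 added, was 0.25 log2 units between 37 h and 38 h, and 11 of 73 hairpins had a larger fall of the ratio there. Skipping the 38 h library, the median absolute change over 2 hours was 0.26 between 37 h and 39 h, against 0.15 over 34 to 36 h and 0.18 over 35 to 37 h, and 0.10 over 39 to 41 h and 0.12 over 40 to 42 h. Hourly steps with a larger median were found at 4 other hours, ending at 8, 14, 16 and 27 h, with medians of 0.28, 0.32, 0.26 and 0.27. Many strands thus shifted between 37 h and 38 h, and a change between libraries and a change in the animals cannot be told apart at these hours.

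After that step the fitted changes of the strands differed. Over 38 to 48 h alone the fitted fall was 0.73 ± 0.08 log2 units for miR-5592-5p (SE, 11 libraries; edgeR adjusted p = 7.7e-06) and 0.30 ± 0.07 for miR-5592-3p (adjusted p = 0.00145), where 48.2% of tested strands fell, 22.1% rose and the median was -0.43. With TMM factors the changes were -0.39 for miR-5592-5p and 0.04 for miR-5592-3p, so the direction of the 3p strand turned with the scaling. With totals, the 5p strand lay 0.30 log2 units below the median of the table and the 3p strand 0.13 above it, distances that scaling hardly alters by construction.

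A simple model of strand accumulation was fitted to every hairpin as a description. In it the more abundant strand is made in proportion to the other and lost at a constant rate, so a long half-life of the guide delays its curve behind that of the passenger. For miR-5592 the model took the pooled counts of both hairpins. By the study, such a model performs well where the passenger half-life is very short and far below that of the guide. Whether this held here was not tested, so the half-lives are fitted values only. The study lists a decay rate for miR-5592-3p from its own fit, which is not compared here. For miR-5592 the least-squares half-life in the present fit was 0.407 h, which amounts to almost no delay between the strands. The share of variation left unexplained was 2.05%, which ranked 10th lowest of 102 hairpins, where the median was 19.9%. The half-lives of all hairpins had a median of 6.97 h and quartiles of 2.07 and 19.5 h. The observed level of miR-5592-3p was 1.63 times the modelled one at 24 h, 1.19 times at 36 h and 0.861 times at 40 h. The fit thus ran below the data during the steep rise and from 32 to 37 h, above them from 38 to 46 h and below them again at 47 h and 48 h, and the half-life was between 0.228 and 0.684 h with other hours and another error measure.

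The course of other strands was set beside that of miR-5592-3p after division of each by its own maximum, and likeness was the root mean square difference over the 44 libraries, which all strands share. The closest was its partner miR-5592-5p with 0.081. The next were miR-240-3p with 0.084, miR-786-5p with 0.094, miR-77-5p with 0.121, miR-85-3p with 0.133, miR-246-3p with 0.134 and miR-786-3p with 0.142, against a median of 0.494 over the tested strands. On this scale high levels carry most of the weight. On a log2 scale, which weighs the early hours as much, miR-5592-5p stayed first with 0.56, and miR-246-3p with 1.02 and miR-85-3p with 1.06 came next.

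The genes of miR-240 and miR-786 are neighbours on chromosome X, at X:7882622-7882718 and X:7882751-7882840 on the plus strand in WBcel235, and are known for a role in the defecation rhythm of the intestine. miR-240-3p, unlike miR-5592-3p, was climbing before 22 h, with 63.5, 595, 1003, 1468, 3891 and 6787 normalised counts in the libraries of 8, 21, 22, 24, 28 and 35 h. miR-786-3p had 14.8, 227, 397, 396, 1671 and 2360 normalised counts in the same libraries. Both had a switch-on hour of 22 h and crossed 50% of their later level within 1 h of miR-5592-3p, at 27.1 h and 26.6 h. Their course was thus close to that of miR-5592 near the crossing of 50%, but both had begun to climb earlier. From 22 to 24 h miR-240-3p went on climbing, while miR-786-3p held level at 397 and 396 normalised counts.

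miR-246-3p, a microRNA known to promote longevity, and miR-85-3p reached their plateaus later than miR-5592. miR-246-3p had 415, 5496, 41941 and 235765 normalised counts in the libraries of 22, 24, 28 and 35 h, and its switch-on hour was 24 h. miR-85-3p had 1413, 3360, 17369 and 129082 normalised counts in the same libraries, and its switch-on hour was 22 h. They crossed 50% of their later level at 30.5 h and 30.1 h, about 3 h after miR-5592-3p.

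**Figure D4:**
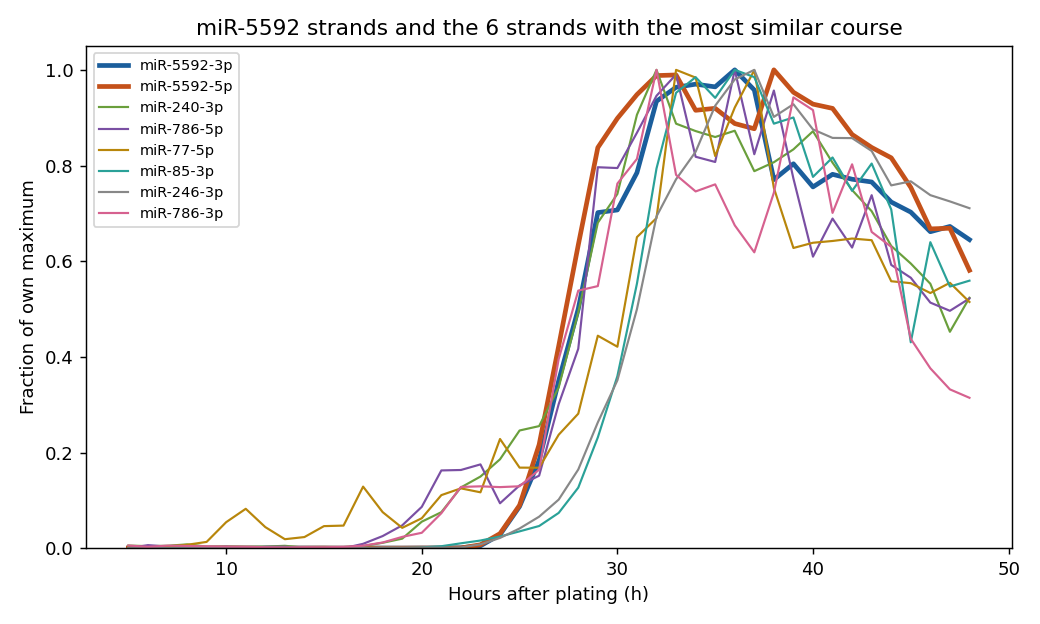
Fraction of its own maximum reached by each strand, by hours after plating, for the miR-5592 strands (thick lines) and the 6 strands with the most similar course. miR-5592-3p crossed 50% of its later level at 27.2 h, near miR-240-3p and miR-786-3p and about 3 h before miR-85-3p and miR-246-3p.

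The 6 most similar strands also fell over 36 to 48 h, 6 of 6 by edgeR against 50% of all tested strands, with a median change of -0.90 log2 units against -0.51. The fall is one of the features by which they were picked. Over 8 to 21 h 4 of the 6 rose, namely miR-240-3p, miR-786-5p, miR-85-3p and miR-786-3p, where 23.5% of all tested strands rose. miR-77-5p and miR-246-3p did not pass the test, with fitted changes of 1.91 (adjusted p = 0.0558) and 2.28 (adjusted p = 0.135) log2 units by edgeR.

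Strands known for developmental timing were set beside them as a list. All 7 of the list were tested, namely the guides of lin-4 and miR-237 and of the let-7 family members let-7, miR-48, miR-84, miR-241 and miR-795. Over 8 to 21 h 6 of 7 rose, lin-4-5p being the exception, against 23.5% of all tested strands, with a median change of 4.85 log2 units against -0.04. let-7-5p was the 1 strand of this list with a switch-on hour, at 21 h, and stood at 126, 31847 and 64750 normalised counts in the libraries of 8, 21 and 22 h. miR-48-5p already had 216889 normalised counts at 21 h and 301152 at 35 h. Over 36 to 48 h 7 of 7 fell, against 50% of all tested strands, with a median of -0.91 against -0.51. The miR-5592 strands thus began to climb after these 6 guides had begun to rise. The rise of let-7-5p was not over by then, since it had 107858 normalised counts at 35 h.

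Of the strands of miR-357, miR-358, miR-246, miR-85, miR-359 and miR-785, which were listed for comparison of a late start, 9 of 11 were tested. The study names miR-357, miR-358, miR-359 and miR-85, with miR-240 and miR-786, among microRNAs that rise markedly late in the third larval stage. It cites earlier promoter data that place all of these in the spermatheca or uterus, among other cells. The study calls miR-785-3p largely invariant. Over 36 to 48 h 8 of 9 fell, with a median of -1.08 log2 units, where 50% of all tested strands fell. Over 8 to 21 h 2 of 9 rose, namely both miR-85 strands, which is near the 23.5% of all tested strands. miR-357-3p and both strands of miR-358, from neighbouring genes, switched on at 24 h and peaked at 29 h. miR-358-3p, for example, had 8.09, 103, 1067, 869 and 386 normalised counts in the libraries of 22, 24, 28, 35 and 48 h, with a peak of 1235. miR-5592-3p, by comparison, had 20210 normalised counts at 48 h and a peak of 31331.

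Strands known for single tissues showed no switch-on hour at the time of miR-5592. The muscle guide miR-1-3p rose in both windows, by 0.45 log2 units over 8 to 21 h and by 0.24 over 36 to 48 h. The neuronal guides miR-124-3p and lsy-6-3p fell in both windows, as did miR-228-5p, known for glia and hypodermis. The intestinal guide miR-60-3p fell by 0.57 log2 units over 36 to 48 h and was not called over 8 to 21 h. The miR-35 family guides fell 8 of 8 over 8 to 21 h, where 23.5% of all tested strands rose and 22.4% fell. They rose 8 of 8 over 36 to 48 h, where 19.9% rose and 50% fell, with a median change of 4.76 log2 units. In that window the median of all tested strands was -0.51 with totals and -0.08 with TMM factors. Falls near that median, such as that of miR-60-3p, are thus not particular to a tissue.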

How the data were processed

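The authors sequenced small RNA of whole N2 worms with an Illumina TruSeq kit, trimmed adapters and aligned reads with Bowtie through QuasR to the ce10 genome, and took as counts the sense reads beginning no more than 3 bp from a mature 5′ end of a lifted miRBase annotation. How reads that match both miR-5592 hairpins were shared between them is not given in the sources used here. The deposited raw counts per strand were used for every test. The deposited log2 table, made by the authors from counts scaled to the mean total with 8 added, matched these counts within rounding and was not tested.

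The 272 of 437 strands that averaged 10 counts or more in the 44 libraries were tested, with libraries scaled by total, as in the study. edgeR 4.0.16 quasi-likelihood tests with Benjamini-Hochberg adjustment over all tested strands, or over 102 hairpins for the ratio, were called at an adjusted p under 0.05. Fitted changes are slopes times window lengths. Intervals of levels and ratios are exact Poisson or Clopper-Pearson intervals at 95%, and a count of 0 was taken to allow 3 counts. Those of doubling times are 95% t intervals from the SE of the slope. Strands were grouped by hour from the labels. The 1 library per hour, of 1669246 to 14672735 counts, allowed no replicate comparison. Half-lives were searched from 0.1 to 200 h.

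Alternatives used TMM factors, totals without the miR-35 guides, DESeq2 1.42.0, limma 3.58.1, autocorrelated residuals (nlme 3.1.168), other filters and windows, and each library left out in turn, in R 4.3.3. Timing and figures used matplotlib 3.10.9, pandas 2.3.3, SciPy 1.17.1 and NumPy 2.4.6 in Python 3.11.15. Scripts were tested on simulated counts.

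The members, lists and tests were chosen with earlier results of these data known. Named strands are the members, the 6 strands most like miR-5592-3p, the developmental timing list, the list compared for a late start and tissue markers. The part of that rule that names strands with the same seed was not applied, as sequences were not used here. The annotation is WBcel235, which is not the build of the authors, and no coordinates were converted.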

Additional observations from a re-analysis of the deposited data

How the results depend on the processing

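The changes of 8 to 21 h kept their direction, and the rhythm results their side of the threshold, under the other scalings, tests and filters tried. The ratio of 24 to 48 h did so with limma, the stricter filter, autocorrelated residuals and a start at 28 h, but not with the step and the windows below. The switch-on hour of miR-5592-3p was 24 h with a limit of 20 times the early level. The fall of 36 to 48 h did not. It was -0.10 for miR-5592-3p and -0.20 for miR-5592-5p with TMM factors and -0.10 and -0.19 with DESeq2 (adjusted p = 0.339 and 0.157), none of them called, and the count of falling strands was 68 with TMM and 70 with DESeq2, against 136. With autocorrelated residuals, an alternative chosen after seeing the data, miR-5592-5p gave -0.61 (adjusted p = 0.177) and was not called. Also chosen after seeing the data, the change of the ratio was 0.57 over 28 to 37 h, 0.43 over 38 to 48 h and 0.80 over 24 to 48 h with a step between 37 h and 38 h, all called. With a quadratic trend 2 strands had a rhythm, against 0. Autocorrelated residuals moved counts of calls too, over 8 to 21 h to 31 rises and 35 falls, against 64 and 61, over 36 to 48 h to 32 rises, against 54, and for the ratio of 24 to 48 h to 8 rises and 2 falls, against 21 and 25. For the ratio of 28 to 37 h they gave 9 rises and 4 falls, against 19 and 14, and for that of 38 to 48 h 16 and 13, against 25 and 25. The ratio fell in 13 hairpins over 24 to 48 h with the step. The half-life was 0.228 h with an error on the log2 scale, 0.684 h from 5 to 37 h alone and 0.1 h, the lower limit of the search, with the strand roles turned. In each case the cause was not tested.

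With each library left out in turn, no tested call on miR-5592 was lost or gained. The change of 8 to 21 h lay between 0.47 and 0.85 for miR-5592-3p and between 0.71 and 1.5 for miR-5592-5p, and that of 36 to 48 h between -0.58 and -0.46 and between -0.73 and -0.53. The rhythm amplitude lay between 0.01 and 0.07 and between 0.03 and 0.10. The change of the ratio lay between 0.11 and 0.20 over 24 to 48 h, 0.53 and 0.62 over 28 to 37 h and 0.38 and 0.47 over 38 to 48 h. Without the 35 h or the 36 h library the ratio fell in 8 hairpins over 28 to 37 h, against 14. No paired analysis was possible because each hour had 1 library and the labels give no replicate numbers. Depth limited the early hours, where miR-5592-5p had 20 counts in 14 libraries.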
